A study of Mus musculus with 37 samples.

Results

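Obox1, Obox2, Obox3, Obox5, Obox6, Obox7, Cphx1 and Cphx2 are oocyte homeobox genes of the mouse, 8 of the 54752 genes measured in these tables, and they carry 32 of the 138835 annotated transcripts. They were chosen by symbol and by measured values, because the choice rested on a strong fall of Cphx2 by metaphase II. Every comparison of germinal vesicle with metaphase II values for these genes is therefore a description without a test. The comparison of germinal vesicle with metaphase I did not enter the choice and was tested. All 8 genes were found in both gene tables.

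Homeobox genes encode transcription factors that bind DNA through a homeodomain. The Obox (oocyte-specific homeobox) and Cphx (cytoplasmic polyadenylated homeobox) genes are families that multiplied in the mouse by local duplication, and their RNA is stored in the growing oocyte while the genome is still transcribed. A fully grown oocyte stops transcription, so between the germinal vesicle stage and the egg its RNA can only be kept, degraded or given a new poly(A) tail, and OBOX proteins are known to help start transcription in the early embryo. Obox1, Obox2, Obox5 and Obox7 are the maternal members of their family, whereas Obox3 is known for its activity after fertilisation and Obox6 for its use in reprogramming somatic cells. Cphx1 was named for an RNA whose tail lengthens in the oocyte cytoplasm, and Cphx2 is a near copy of it.

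RNA of 37 single oocytes of gonadotropin-primed C57BL/6 females was sequenced by Smart-seq2, which copies RNA from its poly(A) tail. Batch A held 6 oocytes at the germinal vesicle (GV) stage, taken from ovaries, and 6 at metaphase II (MII), taken from the oviduct ampulla after human chorionic gonadotropin. Batch B held 10 GV oocytes, again from ovaries, and 15 at metaphase I (MI), which were GV oocytes cultured in M16 medium. All were freed of the zona pellucida and any polar body, and the oocyte is the replicate throughout. GV was the only stage in both batches, so for MI against MII the stage, the batch and maturation in culture or in the animal cannot be told apart.

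Genes received between 7509875 and 12648629 RSEM expected counts in the GV oocytes of batch A and between 9930485 and 13988444 in the MII oocytes. In batch B the range was 7184205 to 17724506 in GV and 2709280 to 19390128 in MI oocytes. MI oocyte 15 had the fewest counts. RSEM detected 29836 genes in MII oocyte 1, while its 5 companions had 19587 to 22620. In batch B, oocytes 4, 8 and 9 of the MI group had HTSeq counts in 13820, 13811 and 12481 genes, although RSEM gave counts to 18398, 18542 and 15701. The fits were repeated without these oocytes. Levels within a batch are given in TMM-normalised counts-per-million (CPM), and levels of different genes are compared only in transcripts-per-million (TPM), which also divides by transcript length. Both are shares of an oocyte's sequenced RNA and not amounts.

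The 6 Obox genes lie in a cluster of 53 annotated Obox loci that spans 1.51 Mb of chromosome 7 (chr7:14331436-15839678, GRCm38). Obox7 (ENSMUSG00000055942.13) stands apart at chr7:14659496-14665996 on the plus strand, between pseudogenes. Obox2 (ENSMUSG00000074369.12) at chr7:15388721-15398545 lies inside the plus-strand model of Obox1 (ENSMUSG00000054310.16) at chr7:15388948-15556866, apart from its first bases. Obox3 (ENSMUSG00000066772.12) at chr7:15479825-15639902 runs on the minus strand across the end of Obox1. Obox5 (ENSMUSG00000074366.9) occupies chr7:15750131-15759800 on the plus strand and Obox6 (ENSMUSG00000041583.8) chr7:15833241-15839678 on the minus strand, and neither overlaps another locus. On the plus strand of chromosome 14, Cphx1 (ENSMUSG00000095975.3) covers chr14:25938304-25956356 and Cphx2 (ENSMUSG00000098463.1) covers chr14:26081516-26096127. A further copy, Cphx3 (ENSMUSG00000094817.8), covers chr14:26082297-26235744 and so begins inside Cphx2.

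**Figure D1:**
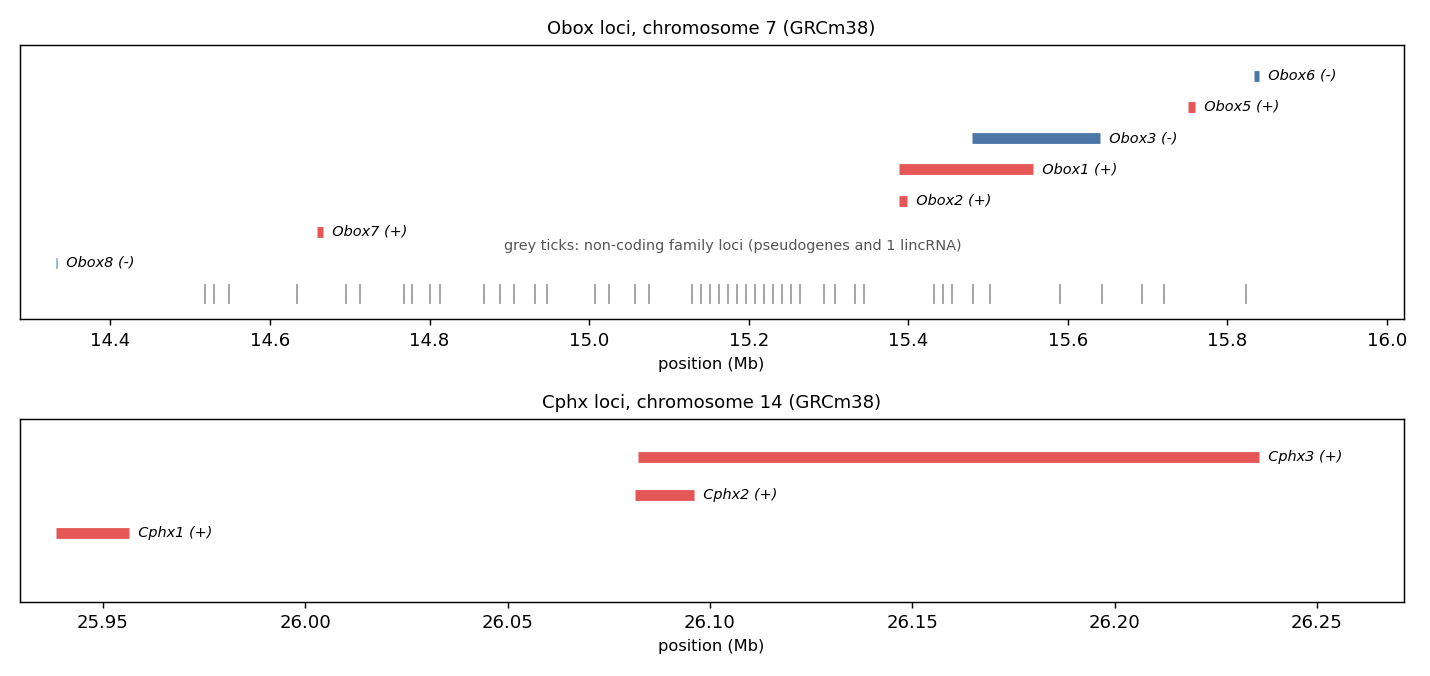
Gene models of the Obox loci on chromosome 7 and the Cphx loci on chromosome 14, with position in Mb on the horizontal axis. Bars are protein-coding genes (red, plus strand; blue, minus strand) and grey ticks the non-coding family loci; Obox1 spans Obox2 and meets Obox3, and Cphx3 begins inside Cphx2.

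In GV oocytes 3 Obox genes were among the most abundant protein-coding RNAs. Obox2 reached 1348 ± 276 TPM (mean ± SD) in the 6 GV oocytes of batch A and 1344 ± 249 TPM in the 10 of batch B, ranks 27 and 22 among 21941 protein-coding genes. Obox1 followed at 896 ± 151 and 732 ± 144 TPM, ranks 69 and 46, and Obox5 at 655 ± 182 and 397 ± 73.0 TPM, ranks 102 and 126. These maternal Obox RNAs thus kept 1 order of abundance in both batches. Obox7 was lower, at 129.6 ± 21.5 and 80.3 ± 18.6 TPM.

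The other members were rarer. Cphx2 stood at 111 ± 132 TPM in the GV oocytes of batch A and 12.1 ± 13.8 TPM in those of batch B, with an SD above its mean in both. Cphx1 stood at 12.5 ± 17.2 and 24.2 ± 47.7 TPM. Obox3 was near 3 TPM in all 4 groups, from 2.76 ± 1.83 in MI to 3.06 ± 1.39 in the GV oocytes of batch A. Obox6 was at 0.188 ± 0.291 TPM in the GV oocytes of batch A and at 0 in those of batch B.

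At MII the order was Obox2 (1204 ± 236 TPM), Obox1 (756 ± 117), Obox5 (533 ± 103), Obox7 (109 ± 17.1), Cphx1 (5.67 ± 3.56), Cphx2 (3.91 ± 2.41), Obox3 (3.03 ± 0.723) and Obox6 (0.113 ± 0.16). At MI the order was the same, from Obox2 at 1030.2 ± 353 TPM, Obox1 at 554 ± 195, Obox5 at 316 ± 84.8 and Obox7 at 53.8 ± 15.2 to Cphx1 at 19.1 ± 26.0, Cphx2 at 4.51 ± 3.65, Obox3 at 2.76 ± 1.83 and Obox6 at 0.0139 ± 0.0366. Neighbours in the order were often not separated by their spread. The ranges of Obox5 and Obox7 were apart in all 4 groups, and those of Obox2 and Obox1 only at MII. The ranges of Obox1 and Obox5, of Cphx1 and Cphx2, and of the lower Cphx gene and Obox3 overlapped in every group. Obox7 was apart from the next gene only at MII, and Obox3 from Obox6 in all groups but MI.

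**Figure D2:**
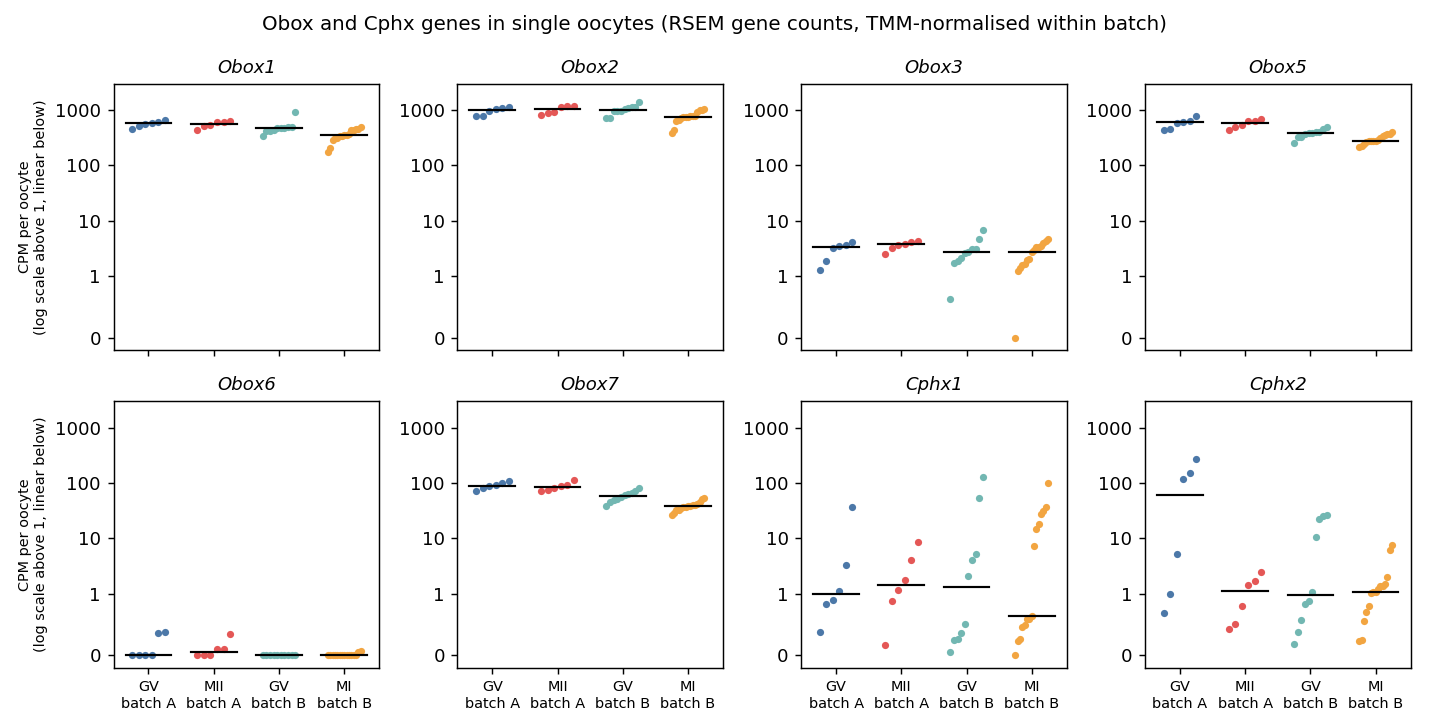
RSEM CPM (log scale above 1, linear below) of the 8 genes in each of the 37 oocytes, by stage and batch; points are oocytes in order of level and black lines are medians. Obox7 is lower at MI (median 38.1) than in the GV oocytes of the same batch (57.4), while Cphx2 in the GV oocytes of batch A spreads from 0.696 to 270.008.

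From GV to MI, all 4 abundant Obox genes were lower in mean level, and none passed the test. Obox7 differed most. Its lowest, median and highest levels were 38.4, 57.4 and 83.0 CPM in the 10 GV oocytes and 26.1, 38.1 and 53.9 CPM in the 15 MI oocytes. All 15 MI oocytes lay below the GV median and 8 of them below every GV oocyte, with MI oocytes 2, 15 and 6 lowest and 3 and 1 highest, so the groups overlapped in part. edgeR gave a log2 fold change of -0.60 ± 0.13 (SE), a ratio of 0.66, with an adjusted p of 0.0559. DESeq2 gave an adjusted p of 0.00478 and the fit of all 37 oocytes 0.00872, within a range of 0.00478 to 0.447 over the settings tried, and in each of them the change stayed under the 2-fold threshold.

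Obox2, the most abundant member, ran from 714 to 1417 CPM in GV (median 1016) and from 392 to 1050.4 CPM in MI (median 749.9). The lowest MI levels were in oocytes 15 and 6, and 14 of the 15 MI oocytes lay below the GV median, although the groups overlapped. edgeR put the log2 fold change at -0.42 ± 0.14 with an adjusted p of 0.196. An interval of 2 SE on each side ran from -0.69 to -0.14 and did not reach a 2-fold fall.

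Obox1 ran from 338 to 925 CPM in GV (median 477) and from 178 to 505 CPM in MI (median 349). GV oocyte 7 was the highest, far above the others in CPM (338 to 491) and less so in TPM (993 against 844 in the next), and 14 of 15 MI oocytes lay below the GV median. The log2 fold change was -0.47 ± 0.15 in edgeR, with an adjusted p of 0.188. Obox5 ran from 252 to 488 CPM in GV (median 382) and from 217 to 402 CPM in MI (median 281), again with 14 of 15 MI oocytes below the GV median. Its log2 fold change was -0.33 ± 0.11 and its adjusted p from edgeR 0.215. Summed over Obox1, Obox2, Obox5 and Obox7, levels were 1949 ± 416 CPM in GV and 1458 ± 329 CPM in MI, a log2 fold change of -0.42 ± 0.13 without a test.

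Over all members, 7 of 8 passed the filter on low counts between GV and MI, and edgeR called 0 of them (adjusted p under 0.05 and fold change over 2), against 15 of 12419 genes or 0.121% of the background. DESeq2 also called 0. At an unadjusted p under 0.05 there were 5 of 7 members, Obox1, Obox2, Obox5, Obox7 and Cphx2, against 11.0% of all genes tested. With HTSeq counts, which were few for Cphx2 and left it out of the fit, there were 2 of 5 (Obox5 and Obox7). With HTSeq counts and without MI oocytes 4, 8 and 9 there were 4 of 5 (also Obox1 and Obox2). The 11.0% belongs to the fit of RSEM counts. No share of all genes is given for the fits of HTSeq counts, so nothing is read from their counts of members. All 7 fold changes were below 0, with a median of -0.42 on the log2 scale, whereas the median of all genes was 0.02. The members are not independent of each other, since Obox1 and Obox2 share sequence and the 4 abundant Obox genes varied together among oocytes. For no member did the 2 stages fail to overlap, and the same held for all genes (0.0%).

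The joint variation of the abundant Obox genes showed within each group as well. Pearson's r of log2(CPM + 1) was taken for the 6 pairs of Obox1, Obox2, Obox5 and Obox7. Its median was 0.821 in the GV oocytes of batch A, 0.9 at MII, 0.77 in the GV oocytes of batch B and 0.749 at MI. These values rest on 6, 6, 10 and 15 oocytes, which also differ in depth. All genes of an oocyte share its size factor, and no such median is given for other gene pairs. Joint variation is therefore not shown to be particular to these genes. The lowest pair of each group held Obox7, with r of 0.47, 0.732, 0.58 and 0.555 in that order. The coefficient of variation of these 4 genes lay between 13.3% and 22.0% in the GV oocytes of batch A, where the median of 7361 genes with at least 10 CPM was 23.6%. At MII it lay between 14.0% and 17.9% (median gene 20.8%) and at MI between 18.6% and 26.0% (median gene 31.7%). In the GV oocytes of batch B it lay between 17.6% and 31.9%, where the median gene had 27.8%. The highest was that of Obox1, with GV oocyte 7 at 925 CPM and the others at 338 to 491. Of the summed TPM of the 4 genes, Obox2 made up 44.5% ± 1.12 in the GV oocytes of batch A and 46.2% ± 1.07 at MII, and 52.6% ± 2.06 in GV and 52.3% ± 2.28 in MI of batch B. The shares thus differed more between the batches than between the stages within a batch, a difference that was not tested.

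Obox3 was measured in few counts. It received 10.2 to 75.4 RSEM counts in the GV oocytes of batch B (median 38.3) and 0 to 64.2 in MI (median 36.7). The only oocyte without an RSEM count of Obox3 was MI oocyte 15, the least deeply sequenced, where a count of 0 allows up to 1.65 CPM (3 counts). HTSeq gave Obox3 a count of 1 in that oocyte. It gave none in GV oocyte 2 and MII oocyte 3 of batch A, and none in GV oocyte 10 and MI oocyte 9 of batch B. The log2 fold change was -0.18 ± 0.39 with an adjusted p of 0.924 in edgeR. It was -0.10 without MI oocyte 15, and HTSeq counts turned it to 0.50 ± 0.85. Most of these counts, 67.2% at MI and 79.0% to 81.0% in the other groups, lay on a transcript of Obox3 with a retained intron. The rest was spread over 7 coding transcripts, with 6.46% to 13.9% on Obox3-201. HTSeq gave Obox3 only 0.244 to 0.564 counts per RSEM count, while the median gene had 1.84 to 2.08.

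Obox6, whose single transcript shares no 100-base stretch with any other gene, was close to undetected. It had counts in 2 of 6 GV oocytes of batch A, at most 5, in 3 of 6 MII oocytes, at most 4, and in 2 of 15 MI oocytes, at most 1.12. In the 10 GV oocytes of batch B it had none, which allows 0.152 to 0.42 CPM per oocyte at 95% confidence, counting error alone. Obox6 did not pass the filter, and with no filter edgeR gave an adjusted p of 0.464 between GV and MI.

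Cphx2 is the gene whose fall led to the choice. In the 6 GV oocytes of batch A its lowest, median and highest levels were 0.696, 61.7 and 270.008 CPM, and in the 6 MII oocytes 0.434, 1.13 and 2.44 CPM. GV oocytes 2, 4 and 5 had 3278, 1376 and 1308 counts, GV oocytes 1, 3 and 6 had 42.5, 13.3 and 9.38, and the MII oocytes had 5.19 to 22.8. The high GV oocytes were thus 3 of 6, and the low ones lay in or near the MII range, so the stages overlapped. The fitted log2 fold change was -6.23 ± 1.23, given without a test. It rests on RSEM counts alone. HTSeq gave Cphx2 0 to 16 counts in these GV oocytes (median 1) and 0 to 6 in the MII oocytes (median 3). GV oocytes 2, 4 and 5 had 16, 0 and 1 of them. Cphx2 was the only 1 of 7 members measured that passed the thresholds between GV and MII, where 8.47% of 12929 genes did. The choice rested on this fall, so the count is no test and nothing is read from it. With the replicate number as a block the log2 fold change of Cphx2 was -4.65 ± 1.46, and it did not pass. No member had GV and MII oocytes without overlap, against 9.79% of all genes.

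Between GV and MI of batch B, which the choice did not use, Cphx2 ranged from 0.185 to 26.1 CPM (median 0.988) in 10 GV oocytes and from 0.235 to 7.65 CPM (median 1.1) in 15 MI oocytes. GV oocytes 2, 4, 5 and 9 had 10.4 CPM or more, above every MI oocyte, and the other 6 GV oocytes had 1.1 CPM or less. The medians of the 2 stages were thus close, and the means, 8.88 and 1.82 CPM, were set apart by 4 GV oocytes. edgeR gave a log2 fold change of -2.25 ± 0.66 and an adjusted p of 0.151, so Cphx2 was not called. Over the settings tried the adjusted p ran from 0.0504 to 0.569 and the log2 fold change from -2.27 to -1.47, the last with the replicate number as a block. Cphx1 ranged from 0.0632 to 127 CPM in GV (median 1.32) and from 0 to 98.5 CPM in MI (median 0.638). Its log2 fold change was -0.26 ± 0.95 with an adjusted p of 0.96 in edgeR, and -0.05 without MI oocytes 4, 8 and 9. With the replicate number as a block it turned to 0.65 ± 1.04. Cphx1 was highest in GV oocytes 4 and 2 and in MI oocyte 2, and MI oocytes 11, 5, 12, 9 and 14 had 14.7 to 37.4 CPM. Whether the change of Cphx2 from GV to MII differs from that from GV to MI was not tested.

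The Cphx values depend on how RSEM divided reads among copies of 1 sequence. The coding sequences of Cphx1-204, Cphx2-201 and Cphx3-201 were the same 546 bases. Cphx1-204 (1649 bases) lay whole inside Cphx2-201 (1710 bases), with 47 more bases before and 14 after, and Cphx2-201 lay whole inside Cphx3-202 (1714 bases), with 4 more bases after. Cphx3-201 (1653 bases) also lay whole inside Cphx2-201, and its coding sequence starts at the same genomic base as that of Cphx2-201, at position 26082341. All 100-base windows of Cphx1-204 and Cphx2-201 thus also occurred in another copy, and only their outer ends set these transcripts apart. HTSeq gave the 3 genes together 18 counts or fewer in every oocyte, while RSEM gave them 1595 to 8834.

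Summed over Cphx1, Cphx2 and Cphx3, the stages overlapped. The sum was 428 ± 94.8 CPM in the 6 GV oocytes and 449 ± 59.5 CPM in the 6 MII oocytes of batch A, and 453 ± 91.9 CPM in the 10 GV oocytes and 492 ± 157 CPM in the 15 MI oocytes of batch B. Its log2 fold change was 0.07 ± 0.15 from GV to MII and 0.12 ± 0.15 from GV to MI, without a test, under a summation that was chosen after seeing the data. In TPM the sum of batch A had the other direction, with 515 ± 124 in GV and 456 ± 54.0 in MII. Cphx2 made up 18.1% of the sum on average in the GV oocytes of batch A. In those of batch B it made up 2.09%, so there the sum says little of Cphx2.

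The share of the sum given to Cphx2 differed widely among oocytes. In the GV oocytes of batch A it took 44.5% of the counts in oocyte 2, 33.6% in oocyte 4 and 28.9% in oocyte 5, and 0.203% to 1.43% in oocytes 1, 3 and 6. It took 0.11% to 0.552% in the MII oocytes, 0.0559% to 6.72% in the GV oocytes of batch B and 0.0409% to 1.48% in the MI oocytes. Cphx1 took up to 8.22%, 1.93%, 25.8% and 16.3% in the same order of groups. The rest went to Cphx3, which was lowest in GV oocytes 4, 5 and 2 of batch A (265, 290.4 and 333 CPM), the oocytes with the most Cphx2. These oocytes also had the highest sums of their group (456, 409 and 607 CPM, against 357 to 371 in the other 3).

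Cphx3 itself had 329 ± 42.5 CPM in GV and 445 ± 58.3 CPM in MII, and these groups did not overlap, although in TPM they did (291 to 439 and 387 to 539). Since RSEM divides the same reads between Cphx3 and Cphx2, this too is a description. The log2 fold change was 0.43 ± 0.13, and with spike-in size factors it turned to -0.35. In batch B it had 425 ± 102 CPM in GV and 474 ± 153 CPM in MI, with a log2 fold change of 0.16 ± 0.15 and an adjusted p of 0.774 in edgeR, and 0.07 without MI oocyte 15. In the GV oocytes of batch A the coefficient of variation was 120.1% for Cphx2, 12.9% for Cphx3 and 22.1% for the sum.

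**Figure D3:**
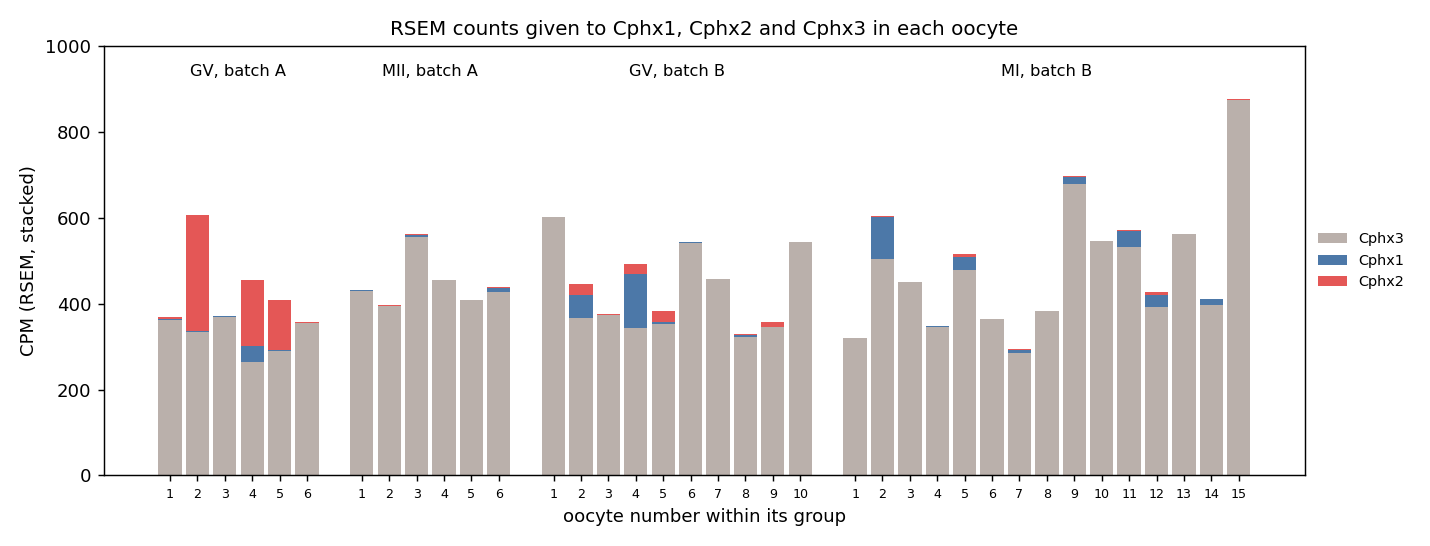
RSEM CPM given to Cphx3 (grey), Cphx1 (blue) and Cphx2 (red) in each oocyte, stacked from 0, with oocytes numbered within their group. Cphx2 takes its largest parts in GV oocytes 2, 4 and 5 of batch A (44.5%, 33.6% and 28.9% of the sum; 6.72% at most in any other oocyte), and the stacks average 428 at GV and 449 at MII.

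The 3′ ends show how little separates the copies. The last 30 bases of their main coding transcripts are printed with the polyadenylation signal AATAAA in capitals, for Cphx1-204 (chr14:25956327-25956356), Cphx2-201 (chr14:26096098-26096127), Cphx3-201 (chr14:26235706-26235735) and Cphx3-202 (chr14:26235715-26235744), all on the plus strand of GRCm38.
Cphx1-204: gttacgttgtccaagaatgAATAAAagata
Cphx2-201: gaatgAATAAAagatattaacttccaaacc
Cphx3-201: tccaagaatgAATAAAagatattaacttcc
Cphx3-202: gAATAAAagatattaacttccaaaccaaaa
The same run of bases passes through all 4 ends, and the annotated transcripts stop at different places along it. AATAAA was also found in the last 30 bases of Obox1-206, Obox2-201, Obox5-201 and Obox7-201, and in 35.5% of the same window of 58797 protein-coding transcripts. ATTAAA was found in Obox1-206, where it overlaps AATAAA, and in Obox6-201, against 9.74% of all. The cytoplasmic polyadenylation elements TTTTAT (2.71% of all) and TTTTAAT (1.21%) were in none of these windows, and Obox3-201 held none of the 4 motifs. Motifs were searched on the transcript strand only, and sequence before the last 30 bases was not searched. In Obox2-201, Obox5-201, Obox7-201, Cphx2-201 and Cphx3-202, AATAAA lies near the start of the window, so little sequence before it was covered. The windows therefore do not show that these RNAs lack the cytoplasmic polyadenylation elements.

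Among the Obox genes the sharing was partial. Of the distinct 100-base windows of Obox1, 42.3% also occurred in Obox2, and 47.2% of those of Obox2 occurred in Obox1. Obox5 and Obox7 shared 1.75% and 2.34% of theirs with each other, and Obox3 shared 8.89% with Obox3 pseudogenes. In global alignments of coding sequences, Obox1 and Obox7 were identical in 87.8% of columns, Obox3 and Obox5 in 81.7%, and Obox1 and Obox2 in 72.9%, where the coding sequence of Obox2 is shorter (453 against 612 bases). Pairs with Obox6 had 33.3% to 68.0%. Unequal lengths lower these values, since gaps count as columns.

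The first 30 bases of the coding sequence show the kinship of these genes. They were identical at 28 of 30 positions in Obox1-206 (chr7:15555162-15555191), Obox2-201 (chr7:15396845-15396874), Obox3-201 (chr7:15627309-15627338, minus strand), Obox5-201 (chr7:15757537-15757566) and Obox7-201 (chr7:14664037-14664066), each within 1 exon of GRCm38. Capitals mark the 2 positions at which the 5 sequences were not all the same.
Obox1-206: atggcGgaaggTccctccttgcatccaaaa
Obox2-201: atggcGgaaggTccctccttgcatccaaaa
Obox3-201: atggcCgaaggCccctccttgcatccaaaa
Obox5-201: atggcAgaaggTccctccttgcatccaaaa
Obox7-201: atggcTgaaggTccctccttgcatccaaaa
HTSeq gave Obox1, Obox2, Obox5 and Obox7 between 1.63 and 2.26 counts per RSEM count in every group, near the median gene, so both counting methods saw these genes despite the shared stretches.

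From GV to MII, the abundant Obox genes stayed within their spread in share of the RNA. Obox2 ran from 790 to 1142 CPM in GV (median 1013) and from 809 to 1206 CPM in MII (median 1045), and 3 of 6 MII oocytes lay on each side of the GV median. The log2 fold change was 0.08 ± 0.14 for Obox2, -0.02 ± 0.13 for Obox1, -0.04 ± 0.16 for Obox5 and -0.05 ± 0.14 for Obox7, and 0.32 ± 0.31 for Obox3. These values describe shares. With size factors from the spike-ins of batch A, the median gene moved from 0.01 to -0.72, and Obox2, Obox1, Obox5 and Obox7 to -0.69, -0.79, -0.81 and -0.79, within 0.1 of that median, while Obox3 turned to -0.43. Cphx1 was at -1.41 ± 1.01, and at -0.20 ± 1.09 with the replicate number as a block, with a single GV oocyte, number 4, at 37.5 CPM and the others at 3.29 CPM or less.

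At MI the same Obox genes sat lower relative to GV than at MII, and this difference between contrasts was not tested. The log2 fold changes were -0.47 (MI) and -0.02 (MII) for Obox1, -0.42 and 0.08 for Obox2, -0.33 and -0.04 for Obox5, and -0.60 and -0.05 for Obox7. The 2 contrasts use GV oocytes of different batches, and batch B held no usable spike-ins (32 counts at most in a GV oocyte and 25 in an MI oocyte).

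At the level of transcripts, 16 of the 32 passed the filter between GV and MI and edgeR called 0, against 0.0% of 22717 transcripts tested. At an unadjusted p under 0.05 there were 6 of 16, against 7.11% of all. The 6 were Obox7-201 and Obox7-203, Obox1-206 and Obox1-201, Obox2-201 and Obox5-201, with log2 fold changes from -0.75 to -0.34 and adjusted p from 0.397 to 0.631. Between GV and MII, 15 transcripts passed the filter and 0 of them passed the thresholds, where 5.57% of all transcripts did, and for the members this is a description. Cphx2-201, with 987 counts on average in the GV oocytes of batch A and next to none at MII, did not pass the filter because fewer oocytes than it asks for held enough counts.

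The use of transcripts differed among the genes. Pooled over the oocytes of a group, Obox2-201 (1459 bases) held 96.5% to 98.1% of its gene's counts in every group and Obox5-201 (1831 bases) 98.2% to 98.5%. Obox1-206 (1217 bases), which starts inside the Obox2 locus, held 67.3% to 82.0% and Obox1-201 (1512 bases) 15.7% to 26.9%. Obox7 was divided between Obox7-201 (1306 bases) and Obox7-203 (1476 bases), which ends at the same base and starts further upstream. The share of Obox7-203 was 43.4% ± 13.5 in GV and 27.5% ± 9.08 in MII of batch A, with overlapping groups, and 45.8% ± 13.5 in GV and 41.3% ± 9.76 in MI of batch B. These shares were not tested. For the Cphx genes, shares pooled over a group follow its few oocytes with many counts, so shares per oocyte with at least 10 counts of the gene are given. Cphx1-204 held 4.21%, 12.2% and 95.7% of the counts of Cphx1 in 3 GV oocytes of batch A, and had a median of 33.7% in 4 MII, 95.2% in 5 GV and 97.3% in 8 MI oocytes. Cphx2-201 had a median of 98.6% (2.18% to 98.8%) in 5 GV oocytes and at most 0.341% in 3 MII oocytes of batch A. In batch B it had a median of 95.4% (0 to 98.5%) in 6 GV oocytes and 0.718% (0 to 92.7%) in 10 MI oocytes. The pooled MII counts of Cphx2 lay on transcripts not annotated as coding, 64.0% on Cphx2-202 and 36.0% on Cphx2-203. Cphx2-203, with a retained intron, has the same 570 bases as Cphx1-201 and Cphx3-203. RSEM gave each of them the same counts, 4.43 on average at MII. The low levels of Cphx1 and Cphx2 thus include an even division of 1 sequence among 3 genes.

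The remaining family loci apart from Cphx3 had few counts. Of 50 other Obox and Cphx loci, 47 were pseudogenes, and these received 0.134% of the family's RSEM counts. None averaged 10 RSEM counts per oocyte, 8 averaged at least 1, and 10 had none in any oocyte. HTSeq gave some of them more, with 15.1 counts on average for Obox3-ps6 in the GV oocytes of batch B. It also gave a few counts to Obox4-ps2, Obox4-ps9 and Obox4-ps25, which had none from RSEM. The most widely detected by RSEM was Obox3-ps8, with a count in 31 of 37 oocytes and 0.828 TPM on average, more than Obox6 had in any group. Obox8, the other coding gene, had an RSEM count in 4 of 37 oocytes.

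Other homeobox genes of the oocyte gave a background for the members. Of 28 found in the tables, 15 were tested between GV and MI and edgeR called 0, with 1 at an unadjusted p under 0.05. Their median log2 fold change was 0.04, against -0.42 for the members. The most abundant by TPM were Meis2, a TALE homeobox gene, at 257 ± 54.3 CPM in GV and 265 ± 45.5 in MI, and Nobox, a regulator of early follicle growth, at 91.3 ± 27.1 and 94.1 ± 31.9. Between GV and MII, edgeR called 2 of 16. Zhx1 was higher by 1.01 ± 0.23 on the log2 scale (adjusted p 0.00556), just past the fold threshold, and the call was lost with HTSeq counts, the replicate number as a block, all 37 oocytes in the fit, no filter, or spike-in scaling. The log2 fold change was 0.27 with spike-in scaling and 0.98 to 1.06 in the other 4. Tgif1 was lower (-1.44 ± 0.45, adjusted p 0.032), a call that was also lost in the block fit (-1.19), in the fit of all oocytes (-1.35) and without MII oocyte 1 (-1.33, adjusted p 0.0653, within 0.00113 to 0.234 over the settings tried).

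Maternal regulators of zygotic genome activation, the process OBOX proteins take part in, were called in neither contrast by edgeR (0 of 18 in both), with 4 at an unadjusted p under 0.05 from GV to MI and 8 from GV to MII, where 4441 of 12929 genes were under it. Their median log2 fold change from GV to MI was 0.02. The most abundant by TPM differed from that median. Dppa3, which protects the maternal genome from demethylation, had 268 ± 74.9 CPM in GV and 212 ± 50.7 in MI, and Zar1, which binds maternal RNA, had 384 ± 178 and 270.04 ± 71.6. Their log2 fold changes, -0.34 ± 0.14 and -0.51 ± 0.18 with adjusted p 0.36 and 0.23, were of the size seen for the Obox genes.

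The oocyte label held in all groups, since all 17 oocyte markers averaged at least 1 CPM in each. Their sum was 20457 ± 3255 CPM in GV and 14088 ± 967 in MII of batch A, and 7954 ± 1483 in GV and 6526 ± 813 in MI of batch B. From GV to MI edgeR called 0 of 17, with 6 at an unadjusted p under 0.05 and 15 below 0 (median -0.27). H1foo, the oocyte linker histone, was at -0.40 ± 0.14 and Gdf9, an oocyte growth factor, at -0.27 ± 0.15. From GV to MII edgeR called 7 lower, among them the zona pellucida genes Zp3 (-2.21 ± 0.22, adjusted p 1.05e-05) and Zp1 (-1.39 ± 0.18, adjusted p 7.69e-05) and the chaperone gene Npm2 (-1.24 ± 0.13, adjusted p 1.46e-05), while H1foo was at 0.28 ± 0.14 and Gdf9 at -0.19 ± 0.14 and were not called.

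Markers of the cells around the oocyte had lower sums at the later stage, which were not tested. The 21 cumulus and granulosa markers summed to 31.0 ± 10.6 CPM in GV (20.7 to 55.3) and 21.9 ± 4.93 CPM in MI (14.9 to 29.5), and to 36.6 ± 8.51 and 27.8 ± 5.06 CPM in GV and MII of batch A. Cyp19a1, aromatase, was the most abundant (12.6 TPM in GV and 10.7 in MI of batch B), ahead of Kitl, the ligand of the oocyte receptor Kit (3.57 and 2.84 TPM). In batch A Cyp19a1 had 16.1 CPM in GV and 17.5 in MII. Amh, Amhr2, Foxl2 and Ptx3 had no count in any GV oocyte of batch B, and these and Inhbb, Hsd17b1 and Pgr had none in MI. Of 5 markers tested between GV and MI, 3 were below 0 and edgeR called 2 lower, Gja1 (-3.42 ± 0.62) and Ccnd2 (-3.69 ± 0.68), both with adjusted p 0.0174, a gap junction gene and a cyclin gene. The calls were lost with HTSeq counts (adjusted p 0.263 and 0.528) and with the replicate number as a block (0.245 and 0.22), within 4.71e-05 to 0.44 for Gja1 and 0.000104 to 0.646 for Ccnd2 over the settings tried, and without MI oocytes 4, 8 and 9 Ccnd2 was not among the genes tested with RSEM counts. The log2 fold changes behind the lost calls were -3.27 (HTSeq) and -2.99 (block) for Gja1 and -2.22 and -3.77 for Ccnd2. Of 2 tested between GV and MII, 1 was below 0 and edgeR called 0, with 0 at an unadjusted p under 0.05. Ccnd2 did not pass the filter there, and it was called lower with no filter (-5.53) and with all 37 oocytes in the fit (-5.40).

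Blood and immune markers were summed in the same way, without a test of the sums. The 8 genes summed to 4.89 ± 1.91 CPM in GV and 3.4 ± 1.7 in MI of batch B, led by the globin gene Hbb-bs (8.28 and 5.6 TPM), and to 0.915 ± 0.565 in GV and 4.09 ± 6.6 in MII of batch A, where MII oocyte 1 had 17.5. Lyz2 had no count in any GV or MI oocyte. Hbb-bs and Hbb-bt were tested between GV and MI and edgeR called neither (0 of 2, with 1 at an unadjusted p under 0.05). Between GV and MII none of the 8 genes passed the filter. Hbb-bs was called higher there with no filter (4.87) and with all 37 oocytes in the fit (4.92), and Hbb-bt was called in neither. What part these cells had in the values of the Obox and Cphx genes was not tested.

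The genes whose pattern over oocytes was most like a member's were found by Pearson's r of log2(CPM + 1) among genes with at least 10 CPM outside the 8 members, and the oocytes share stage, batch and depth effects. For Obox2 in the 25 oocytes of batch B these were Tmem108 (0.896), Ccnb2 (0.868), Rasa4 (0.861), Nup35 (0.86) and Tmem128 (0.852). The members Obox1, Obox5 and Obox7 had 0.943, 0.854 and 0.797. In the 12 oocytes of batch A they were Ppih (0.953), Hist1h2aa (0.953), Cwf19l2 (0.949), Ndufa4 (0.939) and Gm16796 (0.921). There Obox1, Obox5 and Obox7 had 0.92, 0.93 and 0.657. No gene was in both lists for Obox2. For Cphx2 the genes were Cstf1 (0.639), Idh3a (0.624), Adpgk (0.595), Ndufb5 (0.591) and Cenps (0.591) in batch B, and Oas1e (0.946), Lin52 (0.937), Washc1 (0.936), Gm16026 (0.932) and Fbxw24 (0.921) in batch A, again without a shared gene.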

How the data were processed

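The authors trimmed reads with Trim Galore 0.6.4, aligned them with STAR 2.7.6a and deposited expected counts of genes and transcripts made with RSEM 1.3.1. The deposited HTSeq counts were made by the authors with HTSeq 0.12.4, and their strandedness and overlap mode are not stated. Gene identifiers were matched by stable ID to GENCODE M21 on GRCm38, which placed 54723 genes and 138789 transcripts and left 121 and 138 unplaced, 92 of each being spike-ins. The counts rest on GENCODE VM20, while the lengths behind TPM, the shared windows and the transcript ends come from M21.

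Each batch was fitted apart with edgeR 4.0.16 in R 4.3.3, on rounded RSEM expected counts without the 92 spike-ins, after filterByExpr and TMM, with the quasi-likelihood test and Benjamini-Hochberg adjustment over all genes tested. Called means adjusted p under 0.05 and fold change over 2. The SE is the log2 fold change divided by the root of F. DESeq2 1.42.0 was run beside it. TPM was computed from transcript expected counts and annotated lengths. Python 3.11.15, pandas 2.3.3, numpy 2.4.6, Biopython 1.88 and matplotlib 3.10.9 did the rest, with limma 3.58.1 loaded by edgeR.

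From each gene list, the 2 most abundant genes tested were named, and up to 3 genes called in each direction by lowest adjusted p. The members and the lists were chosen with earlier results of these data known.

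Limits. Levels are shares of sequenced RNA, and primed on poly(A), so a change of tail length and a change of RNA amount cannot be told apart. Depth ran from 2709280 to 19390128 counts. Limits for genes at 0 cover counting error only. Whether oocytes shared a female is not stated. Stage and culture cannot be told apart between GV and MI. The division of counts among Cphx1, Cphx2 and Cphx3 was made by RSEM and was not checked against reads, which were not at hand.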

Additional observations from a re-analysis of the deposited data

Results flagged for a closer look

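Of 26 groups of values examined, 5 held an oocyte far from the others. By chance about 1 in 20 groups is marked in this way if the values are normally distributed and the groups independent. Several of these groups are skewed or near 0, and the Cphx sum holds the values of Cphx1 and Cphx2. That rate need not hold here. Obox1 was at 925 CPM in GV oocyte 7 of batch B, with the others at 338 to 491, and at 993 TPM, with 844 in the next. Obox6 was at 0.347 CPM in MII oocyte 5, with the others at 0 to 0.106. Cphx1 was at 37.5 CPM in GV oocyte 4 of batch A, with the others at 0.387 to 3.29. Cphx1 was at 127 CPM in GV oocyte 4 of batch B, with the others at 0.0632 to 53.9. Cphx1, Cphx2 and Cphx3 summed to 562 CPM in MII oocyte 3, with the others at 396 to 456.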

How the results depend on the processing

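From GV to MI, 0 of the Obox and Cphx genes were called in every setting. Of all genes, 15 were called, and 40 with no filter on low counts, 121 with DESeq2, 107 with all 37 oocytes in the fit, 36 without MI oocytes 4, 8 and 9, 21 without MI oocyte 15, and 0 with HTSeq counts, with or without those 3 oocytes. The log2 fold change of Obox3 turned from -0.18 to 0.50 with HTSeq counts, and to 0.50 also without oocytes 4, 8 and 9. Cphx1, Cphx2 and Cphx3 summed, an alternative chosen after seeing the data, gave 0.12, a value that says little of Cphx2, which made up 2.09% of the sum in GV.

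With the replicate number as a block (replicate block), 0 genes were called from GV to MI, Cphx1 turned from -0.26 to 0.65, and 0 Obox and Cphx genes passed from GV to MII, where Cphx2 was at -4.65 against -6.23. Oocytes of the same number were not alike, with r of -0.146 to 0.107 in batch B and -0.327 to 0.341 in batch A.

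The choice used the values of GV and MII, so the counts of members below describe them and test nothing. From GV to MII 1 of the Obox and Cphx genes passed, Cphx2, and 2 with no filter. There were 0 with HTSeq counts, where Cphx2 had few counts at both stages (median 1 in GV and 3 in MII oocytes) and was not fitted. There were also 0 with the Cphx copies summed, where Cphx2 is no gene of its own and the log2 fold change of the sum was 0.07. Of all genes 1095 were called, and 1859 with no filter, 653 with all 37 oocytes and 3919 with spike-in size factors. Of the member transcripts 0 passed, where 5.57% of all transcripts did, and 1 passed with no filter, 1 with all 37 oocytes and 1 with spike-in size factors. No share of all transcripts is given for those other settings, so nothing is read from these counts.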
